A study of Mus musculus with 10 samples.

Results

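The interferon-inducible GTPases described here were 10 genes of 2 families. Gbp2, Gbp3, Gbp5, Gbp6 and Gbp7 encode guanylate-binding proteins (GBPs). Igtp, Irgm1, Irgm2, Iigp1 and Tgtp1 encode immunity-related GTPases (IRGs). They were chosen as a list of gene symbols, and each gene was read from the probe set annotated to that gene alone that had the highest mean over all arrays. Of the 10 genes, 5 had such a probe set (Gbp3, Gbp5, Gbp7, Irgm1 and Iigp1), out of 19938 genes that did. The other 5 were found only on probe sets annotated to several genes, and the 5 such probe sets, out of 28853 on the array, are reported apart. Igtp and Irgm2 share a probe set, Tgtp1 shares 2 probe sets with its near-identical copy Tgtp2, Gbp2 shares a probe set with Gbp2b, and Gbp6 shares one with Gbp4, Gbp8, Gbp9, Gbp10 and Gbp11. A shared probe set cannot tell its genes apart.

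The study asked which genes differ between wild-type macrophages and macrophages without Toll-like receptor 9 (TLR9), an endosomal receptor for DNA, when they meet β-1,3 glucan, a fungal cell wall sugar. Both lines were immortalized mouse macrophages, labelled wild-type and TLR9KO, and the labels name the wild-type cells as B6 in the culture protocol and on the bead arrays. Each was either unstimulated or kept with 20 β-1,3 glucan beads per cell for 4 h. RNA was read on 10 Affymetrix arrays, with 3 unstimulated and 3 bead arrays of the wild-type line and 2 unstimulated and 2 bead arrays of the TLR9KO line. Immortalization is common to all 4 groups. Each genotype was a single named line, so the genotype and other differences between the lines cannot be told apart. Whether the arrays of a group stand for separate cultures is not stated, so the p-values cover the spread among these arrays, which may be technical.

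GBPs and IRGs are large GTPases that interferons induce in macrophages and many other cells. They gather on the membranes of vacuoles that hold parasites or bacteria, help to break them open, and feed into autophagy proteins and inflammasomes. Among the IRGs, Irgm1, Irgm2 and Igtp (also called Irgm3) are regulators that sit on the cell's own membranes and hold the effector IRGs, such as Iigp1 (Irga6) and Tgtp1 (Irgb6), in an inactive state. Their genes are textbook targets of a pair of DNA elements, the interferon-stimulated response element (ISRE), bound by interferon regulatory factors and the STAT2 complex with IRF9, and the gamma-activated sequence (GAS).

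The stretches just before the start sites are shown because most of the readings were higher in the TLR9KO line, as described below. They were taken from RefSeq, build GRCm38.p6, and end at the base before the transcription start. A promoter window (250 bases before to 50 from the start) was given for 8 of the 10 members, and Gbp6 and Iigp1 had no entry. Capitals mark the letters searched as an ISRE, GAAA, any 2 bases and GAAA again (on the opposite strand TTTC, any 2 bases and TTTC), and those searched as a GAS, TTCNNNGAA, which reads alike on both strands. The IRG stretches are Igtp (chr11:58199446-58199555, plus strand), Irgm2 (chr11:58214867-58214976, plus), Tgtp1 (chr11:48992247-48992356, minus) and Irgm1 (chr11:48871421-48871530, minus).
Igtp: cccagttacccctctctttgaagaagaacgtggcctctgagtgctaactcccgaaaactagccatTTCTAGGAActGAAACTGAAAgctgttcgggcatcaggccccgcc
Irgm2: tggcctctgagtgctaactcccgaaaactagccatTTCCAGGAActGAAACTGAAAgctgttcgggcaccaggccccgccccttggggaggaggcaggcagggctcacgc
Tgtp1: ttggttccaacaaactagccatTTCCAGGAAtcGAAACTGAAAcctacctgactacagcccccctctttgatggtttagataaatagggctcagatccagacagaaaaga
Irgm1: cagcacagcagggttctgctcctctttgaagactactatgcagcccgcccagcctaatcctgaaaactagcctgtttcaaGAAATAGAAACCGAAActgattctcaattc

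The GBP stretches all lie on the plus strand of 1 chromosome. They are Gbp3 (chr3:142559934-142560043), Gbp7 (chr3:142530226-142530335), Gbp2 (chr3:142620553-142620662) and Gbp5 (chr3:142496754-142496933), the last printed longer to take in its ISRE letters.
Gbp3: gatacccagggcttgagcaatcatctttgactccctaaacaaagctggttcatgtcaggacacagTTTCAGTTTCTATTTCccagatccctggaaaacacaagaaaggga
Gbp7: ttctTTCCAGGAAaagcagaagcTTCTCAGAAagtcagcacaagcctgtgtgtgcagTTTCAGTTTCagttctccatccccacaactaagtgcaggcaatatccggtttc
Gbp2: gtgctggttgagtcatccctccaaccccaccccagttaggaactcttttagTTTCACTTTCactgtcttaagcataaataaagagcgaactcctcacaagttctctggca
Gbp5: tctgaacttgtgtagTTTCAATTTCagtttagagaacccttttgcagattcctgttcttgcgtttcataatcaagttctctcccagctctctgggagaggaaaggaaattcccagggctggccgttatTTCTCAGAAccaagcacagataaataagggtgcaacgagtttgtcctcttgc

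ISRE letters were present in a window of all 8 members with an entry, against 3.44% of all 32851 windows of this length. GAS letters were present in 5 of the 8, against 8.3% of all windows, and 5 of the 8 held both, against 0.454%. Gbp3 had 2 windows, and the second held neither. Counting the base before the start as -1, the ISRE letters began at -34 in Igtp, -64 in Irgm2, -77 in Tgtp1, -53 in Gbp7, -59 in Gbp2 and -165 in Gbp5. Irgm1 (-30 and -24) and Gbp3 (-45 and -39) each had a pair of ISRE matches that overlap by 4 bases. In Igtp, Irgm2 and Tgtp1 a GAS began 11 bases before an ISRE that read GAAACTGAAA. That spacing occurred in 5 of all windows (0.0152%), the other 2 being Tgtp2 and Gm12185. The spacing was noticed in the members' own windows, so its share is a description. The Igtp and Irgm2 stretches, set 30 bases apart, had the same base at 78 of 80 positions, so they do not count as independent. A match describes letters and is not evidence of binding.

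**Figure D1:**
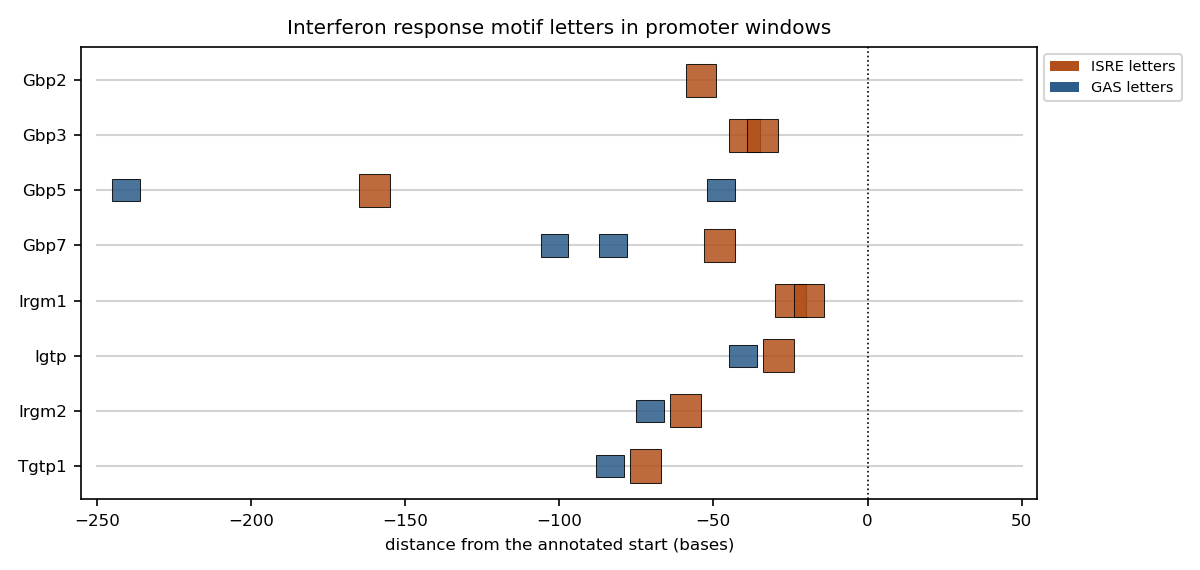
Positions of ISRE letters and GAS letters (marks) in bases from the transcription start (x axis) in the promoter window of each gene (rows), on either strand. Igtp, Irgm2 and Tgtp1 carry a GAS directly upstream of an ISRE, while Irgm1 and Gbp3 carry overlapping ISRE letters.

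The arrays were checked before the members were compared. All 10 macrophage markers examined (among them Adgre1, Csf1r and Lyz2) lay above the 25th percentile of genes on every array, and 8 lay above the 75th. Their mean log2 level was 9.83 to 10.42 on the wild-type arrays and 10.49 to 10.77 on the TLR9KO arrays. In both line comparisons 4 of 10 were higher and 1 lower in the TLR9KO line. Of all genes 3.79% were higher and 4.46% lower without beads, and 3.82% and 3.4% with beads. Cd14 differed most among those higher (log2 difference 2.46 without and 2.42 with beads), and Mertk was the lower one (-1.50 and -1.94). None of the 6 dendritic cell, 6 granulocyte, 6 lymphocyte or 7 fibroblast markers passed in either line comparison, and their mean levels were 4.44 to 5.98 on all arrays. Of these, 4 dendritic cell, 3 granulocyte, 1 lymphocyte and 4 fibroblast markers also lay above the 25th percentile on every array. In each of these lists 0 lay above the 75th on every array. The part of these marker differences in the results was not tested. Tlr9 read 6.91 to 7.44 on the wild-type arrays and 7.31 to 7.62 on the TLR9KO arrays. It was thus not lower under the knockout label, and where its probes lie relative to any deletion is not given here. Every direction below therefore rests on the labels. Wild-type bead array 3 stood apart, with a mean correlation with its group mates of 0.973 across genes (0.985 to 0.997 for the other arrays) and an SD over genes of 1.75 (1.86 to 2.00 for the others). The members' comparisons that use its group mean are given below also without it. Every comparison takes its spread from all 10 arrays, so this array also enters the comparison without beads.

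Without beads, 4 of the 5 members with a probe set of their own were higher in the TLR9KO line, and none was lower. The call was made at an adjusted p under 0.05 in limma over all 19938 genes, and 3.79% of those genes were called higher and 4.46% lower. The 5 members had a median log2 difference of 2.13, against 0.02 over all genes. All 5 shared probe sets were also higher, against 3.01% of the 28853 probe sets, with a median of 1.66 against 0.02. In all 10 readings every TLR9KO array lay above every unstimulated wild-type array, as was so for 17.7% of genes and 17% of probe sets. Differences are given in log2 units with their standard error (SE), and levels of different probe sets are not comparable. The SE takes its spread from the fit of all 10 arrays, bead arrays included. In extracts of whole cultures, fewer expressing cells and less RNA per cell cannot be told apart.

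Gbp7, a GBP linked to assembly of the phagocyte NADPH oxidase, had the largest difference of the members. Its unstimulated log2 signals were 6.12, 5.64 and 6.12 in the wild-type line and 8.59 and 8.50 in the TLR9KO line. The lines were far apart, and the pair of TLR9KO arrays lay close together. The difference between the means of 3 and 2 arrays was 2.59 ± 0.16 (SE from the fit of all 10 arrays, 95% interval 2.22 to 2.96). That is 6.01-fold (limma adjusted p = 1.62e-05). Gbp3, its neighbour in the same GBP cluster, read 5.28, 5.33 and 5.55 in the wild-type line and 7.71 and 7.34 in the TLR9KO line. That is 2.13 ± 0.16, or 4.39-fold (adjusted p = 3.78e-05), again with no overlap.

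Gbp5, a GBP known for promoting NLRP3 inflammasome assembly, was the member of its cluster that did not pass. It read 4.28, 4.11 and 4.16 in the wild-type line and 4.41 and 4.48 in the TLR9KO line, below the 25th percentile of genes on all 10 arrays. Its difference was 0.26 ± 0.10 (interval 0.04 to 0.48; limma adjusted p = 0.176). Fold values are not given for signals this close to the bottom of the scale. With array weights the call was made (0.27, adjusted p = 0.0181). Without wild-type bead array 3 it was not, at 0.26 (limma adjusted p = 0.0503).

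Gbp2, a prenylated GBP that gathers on pathogen vacuoles, was read together with Gbp2b. That probe set gave 4.73, 4.57 and 4.68 in the wild-type line, below the 25th percentile on all 6 wild-type arrays, and 6.87 and 6.16 in the TLR9KO line. The difference was 1.85 ± 0.19 (interval 1.42 to 2.29; limma adjusted p = 5.91e-04), and the TLR9KO arrays lay further apart than for the other members. A separate probe set of Gbp2b alone read 4.46 to 4.79 on the wild-type and 4.59 to 4.82 on the TLR9KO arrays and did not pass (0.22 ± 0.11, adjusted p = 0.355). The shared probe set therefore differed far more than the probe set of Gbp2b alone, although the 2 probe sets may differ in sensitivity.

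Gbp6, a member of the second GBP cluster, was read with Gbp4, Gbp8, Gbp9, Gbp10 and Gbp11. The signal was 4.73, 4.72 and 4.76 in the wild-type line and 5.66 and 5.53 in the TLR9KO line, a difference of 0.85 ± 0.12 (limma adjusted p = 0.00354). The call was lost without unstimulated TLR9KO array 1 (0.79, adjusted p = 0.053). Of the other genes on it, 4 had a probe set of their own. Gbp9 (1.57 ± 0.16, adjusted p = 2.78e-04) and Gbp8 (0.51 ± 0.12, adjusted p = 0.0334) were higher, while Gbp4 (0.11 ± 0.11) and Gbp11 (0.22 ± 0.14) did not pass. The shared value thus cannot be assigned to Gbp6.

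The readings of the regulatory IRGs (Irgm1 alone, and Igtp with Irgm2 together) were also higher in the TLR9KO line. Irgm1, which is needed for resistance to mycobacteria and for macrophage autophagy, read 7.63, 7.91 and 7.59 in the wild-type line and 9.87 and 9.98 in the TLR9KO line. Its difference was 2.22 ± 0.21 (interval 1.75 to 2.68), or 4.65-fold (limma adjusted p = 1.79e-04). The probe set of Igtp and Irgm2 read 5.27, 5.49 and 5.47 against 7.25 and 7.19. The TLR9KO arrays again lay close together and well clear of the wild-type arrays, by 1.81 ± 0.11, or 3.51-fold (adjusted p = 2.41e-05).

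The readings of the effector IRGs were also called higher, although the call for Iigp1 was not stable. The brighter probe set of Tgtp1 and Tgtp2 read 5.65, 5.43 and 5.58 in the wild-type line and 7.36 and 7.08 in the TLR9KO line, a difference of 1.66 ± 0.13, or 3.16-fold (limma adjusted p = 1.22e-04). The second read 5.26, 4.88 and 5.25 against 6.53 and 6.50, or 1.39 ± 0.14 (2.61-fold, adjusted p = 5.73e-04), in the same direction as the first. Iigp1, the effector that coats Toxoplasma vacuoles, was near the bottom of the scale. It read 3.88, 3.84 and 3.92 in the wild-type line and 4.60 and 4.42 in the TLR9KO line, below the 25th percentile of genes on all 10 arrays. Its difference of 0.63 ± 0.12 passed (interval 0.36 to 0.89, adjusted p = 0.0103), but not after centring the arrays on the median (0.58, adjusted p = 0.152) or without unstimulated TLR9KO array 1 (0.54, adjusted p = 0.123).

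**Figure D2:**
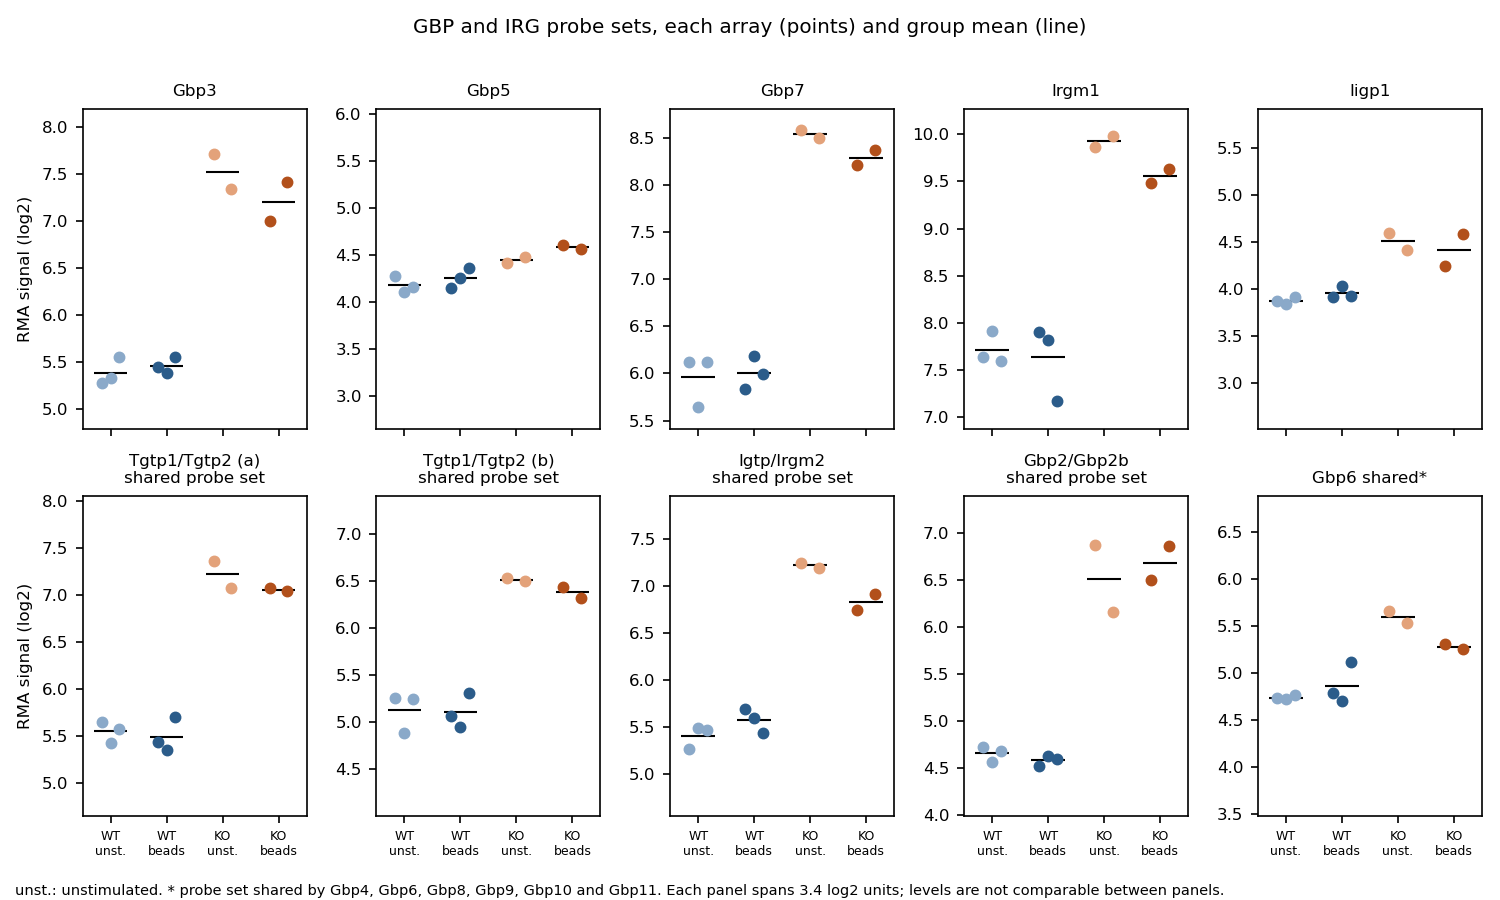
Log2 signal (y axis) on each of the 10 arrays (points) and the group mean (line) for the 5 probe sets of a single member (top) and the 5 shared ones (bottom), by line (WT, wild type; KO, TLR9KO) and treatment. All panels span the same number of log2 units; in every panel the TLR9KO arrays lie above the wild-type arrays, narrowly in Gbp5, Iigp1 and the shared Gbp6 probe set, and within a line the bead and unstimulated arrays lie close together.

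With beads, the lines differed in the same direction, and these values come from other arrays than those above. Of the 5 members with their own probe set, 4 were higher in the TLR9KO line, against 3.82% of genes called higher and 3.4% lower, with a median of 1.75 against -0.01 over all genes. Of the 5 shared probe sets, 4 were higher, against 2.98% of probe sets, with a median of 1.27 against -0.01. Every TLR9KO bead array lay above every wild-type bead array in all 10 readings, as was so for 11.3% of genes and 10.5% of probe sets.

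Gbp7 read 5.84, 6.19 and 5.99 in the wild-type line with beads and 8.21 and 8.37 in the TLR9KO line. The difference was 2.28 ± 0.16, or 4.87-fold (limma adjusted p = 3.63e-05). Gbp3 read 5.45, 5.38 and 5.55 against 7.00 and 7.41, or 1.75 ± 0.16 (3.35-fold, adjusted p = 1.44e-04). For both GBPs the lines were again clear of each other. Irgm1 read 7.90, 7.82 and 7.17 against 9.48 and 9.63, or 1.93 ± 0.21 (3.8-fold, adjusted p = 4.21e-04). The lowest Irgm1 value came from wild-type bead array 3, and without that array the difference was 1.70 (adjusted p = 5.57e-06). The lines did not overlap for Irgm1 with or without it.

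The probe set of Igtp and Irgm2 read 5.69, 5.60 and 5.44 in the wild-type line with beads and 6.75 and 6.92 in the TLR9KO line. The difference was 1.26 ± 0.11, or 2.39-fold (limma adjusted p = 2.25e-04). The brighter Tgtp1 and Tgtp2 probe set read 5.44, 5.35 and 5.70 against 7.07 and 7.04 (1.56 ± 0.13, 2.95-fold, adjusted p = 1.81e-04). The second read 5.07, 4.95 and 5.31 against 6.44 and 6.32 (1.27 ± 0.14, 2.42-fold, adjusted p = 9.65e-04). For both Tgtp probe sets every TLR9KO array again lay above every wild-type array. Gbp2 with Gbp2b read 4.52, 4.63 and 4.60 against 6.50 and 6.86, or 2.09 ± 0.19 (adjusted p = 3.04e-04), and the probe set of Gbp2b alone again did not pass (0.01 ± 0.11). Without wild-type bead array 3, Gbp3 gave 1.79, Gbp7 2.28, Igtp with Irgm2 1.19, the Tgtp1 and Tgtp2 probe sets 1.66 and 1.37, and Gbp2 with Gbp2b 2.10, and all passed in limma.

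The 3 weakest readings with beads depended on the processing. Iigp1 read 3.92, 4.03 and 3.93 in the wild-type line and 4.25 and 4.59 in the TLR9KO line. Its difference of 0.46 ± 0.12 just passed (limma adjusted p = 0.0485) and was lost in 12 of 18 alternatives, with adjusted p up to 0.437 (0.29 without TLR9KO bead array 2). Without wild-type bead array 3 it was 0.44 and passed (adjusted p = 0.0239). Gbp5 read 4.15, 4.25 and 4.36 against 4.60 and 4.56, a difference of 0.32 ± 0.10 that did not pass (adjusted p = 0.0946). It passed without wild-type bead array 3 (0.38, adjusted p = 0.0128). The Gbp6 probe set read 4.78, 4.70 and 5.11 against 5.30 and 5.25, or 0.41 ± 0.12 (adjusted p = 0.116). The value of 5.11 was again from wild-type bead array 3, and without it the difference was 0.53 and passed (adjusted p = 0.00194).

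**Figure D3:**
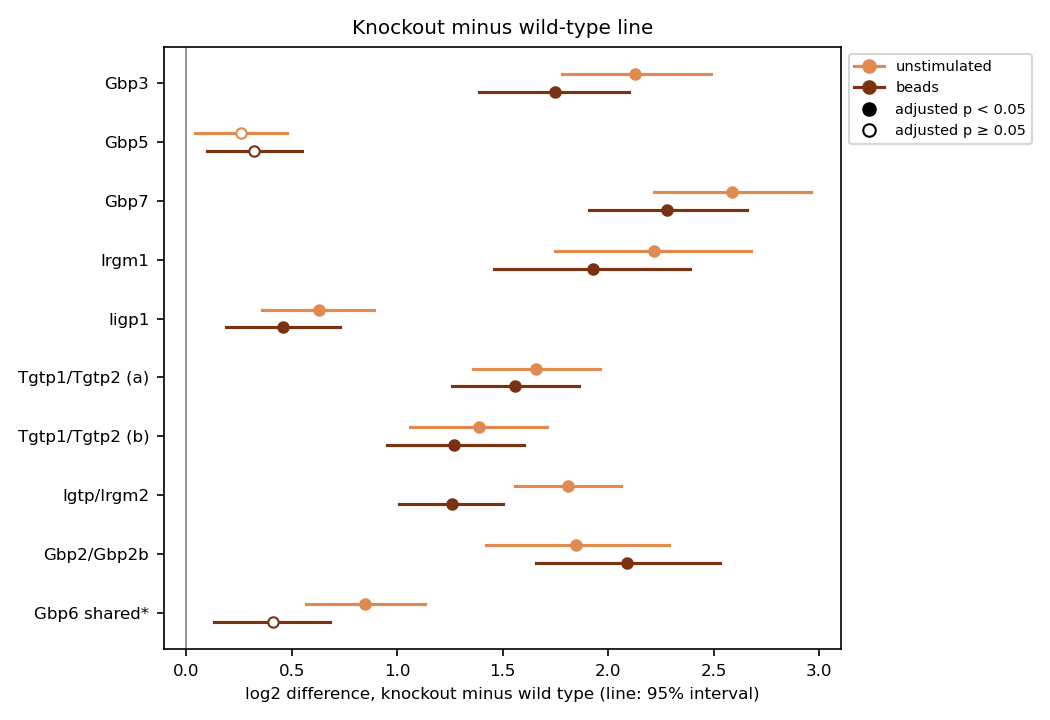
Difference between the lines in log2 signal (TLR9KO minus wild type, x axis) for each reading, without and with beads, with the 95% interval as a line and filled points for adjusted p under 0.05; the starred Gbp6 reading is the probe set it shares with Gbp4, Gbp8, Gbp9, Gbp10 and Gbp11. All estimates are above 0, from 0.26 for Gbp5 to 2.59 for Gbp7 without beads.

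Beads changed no member past the threshold in either line. In wild-type cells the 5 members' own differences, beads minus unstimulated, ran from -0.08 (Irgm1) to 0.08 (Iigp1), and those of the 5 shared probe sets from -0.08 to 0.17. Over all these readings the 95% intervals reached from -0.49 to 0.39, so a change within a reading's own interval was not excluded. None of 19938 genes passed in this comparison in limma (0%), and 167 (0.838%) had an unadjusted p under 0.05, none of them a member. Of the probe sets 0% passed and 0.922% had an unadjusted p under 0.05, none of them a shared probe set of members. Of the members, Iigp1 alone had bead arrays that did not overlap the unstimulated arrays (higher, against 2.29% of genes), and the nearest values of its groups were both 3.92 after rounding. Without wild-type bead array 3, 0 genes and 0 member readings passed, and the members' estimates ran from 0.02 to 0.15 and those of the shared probe sets from -0.16 to 0.24. With array weights, whose estimation did not converge, 9174 genes passed. Among them was Irgm1 with the opposite sign (0.21, adjusted p = 0.00869), and 3 shared probe sets also passed, Igtp with Irgm2 (0.18) and both of Tgtp1 and Tgtp2 (-0.22 and -0.26).

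In the TLR9KO line the estimates were mostly below 0, in 4 of 5 members with their own probe set (48.2% of genes) and 4 of 5 shared probe sets (50.2% of probe sets). None passed in limma, where 0 of 19938 genes did (0%) and 359 (1.8%) had an unadjusted p under 0.05. Gbp7, at 8.59 and 8.50 without and 8.21 and 8.37 with beads, gave -0.26 ± 0.18 (interval -0.66 to 0.15). Irgm1 gave -0.37 ± 0.23 (interval -0.87 to 0.14), Gbp3 -0.32 ± 0.17 (-0.70 to 0.07), Iigp1 -0.09 ± 0.13 and Gbp5 0.13 ± 0.11. Bead and unstimulated arrays did not overlap for Gbp7 and Irgm1 (lower, against 11.2% of genes) and for Gbp5 (higher, against 13.2%).

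The interval left out 0 for 2 shared probe sets of the TLR9KO line. That of Igtp and Irgm2 gave -0.39 ± 0.12 (interval -0.66 to -0.11) and that of Gbp6 gave -0.32 ± 0.13 (-0.62 to -0.02), both at a limma adjusted p of 1. Of all probe sets, 1.64% had an unadjusted p under 0.05. The bead arrays lay below the unstimulated arrays in 4 of the 5 shared probe sets, against 11.8% of all probe sets. The exception was Gbp2 with Gbp2b (0.16 ± 0.21), whose arrays overlapped.

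The bead responses of the lines were also compared with each other (TLR9KO minus wild type). No member passed, as with all 19938 genes (0%), of which 172 (0.863%) had an unadjusted p under 0.05. The differences ran from -0.39 ± 0.22 (Gbp3, interval -0.89 to 0.11) to 0.06 ± 0.14 (Gbp5), with a median of -0.29 against -0.01 over all genes. Gbp7 gave -0.30 ± 0.23, Irgm1 -0.29 ± 0.29 and Iigp1 -0.17 ± 0.17. Without wild-type bead array 3 the value for Irgm1 was -0.52, those of the other members with their own probe set ran from -0.35 to 0.12 and those of the shared probe sets from -0.62 to 0.25, and no reading passed. Among the shared probe sets, that of Igtp and Irgm2 gave -0.55 ± 0.15 (interval -0.91 to -0.20) and that of Gbp6 -0.44 ± 0.17 (-0.84 to -0.05). Both had an adjusted p of 1, and 0.943% of probe sets had an unadjusted p under 0.05. The others ran from -0.11 to 0.24, and each interval took in 0. The comparison shares its arrays with the line and bead comparisons above. Over the 4 groups, the mean was highest in unstimulated TLR9KO arrays in 8 of the 10 readings and in TLR9KO bead arrays for Gbp5 and Gbp2 with Gbp2b. In no reading did the groups within a line differ past the threshold.

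**Figure D4:**
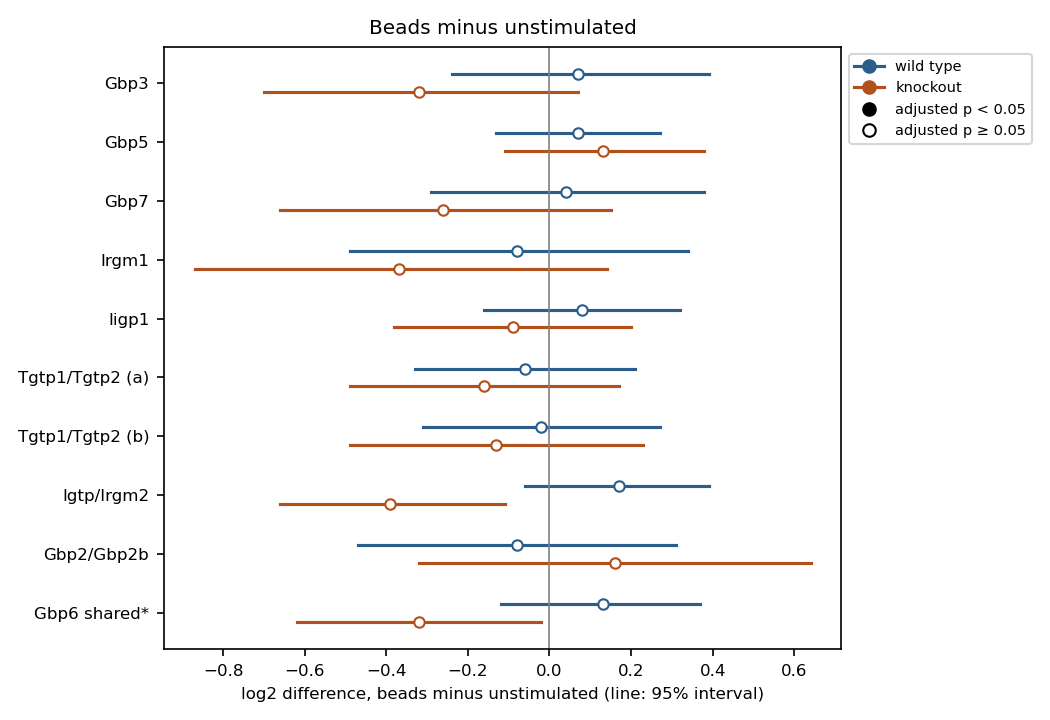
Bead response (beads minus unstimulated, log2, x axis) of each reading in the wild-type and the TLR9KO line, with the 95% interval as a line; open points did not pass, and the starred Gbp6 reading is its shared probe set. Only Igtp with Irgm2 and the shared Gbp6 probe set in the TLR9KO line have intervals that leave out 0, and none passed after adjustment.

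Other GTPases of the same kind moved in the same direction or did not pass. Of 20 further family genes, 10 had their own probe set, 6 were found only on shared ones and 4 were not analysed here. In the TLR9KO line without beads 4 of the 10 were higher and 0 lower, against 3.79% and 4.46% of all genes, with a median of 0.29 against 0.02. With beads 3 were higher and 0 lower, against 3.82% and 3.4%, with a median of 0.28 against -0.01. The count without beads fell without unstimulated TLR9KO array 2. With beads the count was 5 without wild-type bead array 3, where 4171 of all 19938 genes passed. It was 1 with only the compared groups in the fit, where 480 genes passed. Besides Gbp8 and Gbp9, these were Gm12250 (Irgb10), an effector IRG that acts with GBPs on bacteria (1.38 ± 0.12, limma adjusted p = 1.35e-04, and 1.26 with beads), and Mx2, an antiviral GTPase (0.79 ± 0.15, adjusted p = 0.0121, and 0.73 with beads). A further 6 shared probe sets hold family genes and no member. All 6 were higher without beads, against 3.01% of probe sets, and 3 with beads, against 2.98%. Several of the 6 hold the same genes, so they do not count as independent. They included that of the IRG gene Ifi47 with Olfr56 (1.10 ± 0.10, adjusted p = 3.25e-04) and that of Gm4070 with Gvin1, a very large interferon-inducible GTPase (1.90 ± 0.13, adjusted p = 5.34e-05). In the TLR9KO line the bead response of these 6 was below 0 throughout, from -1.04 to -0.43, against 50.2% of probe sets below 0. The intervals left out 0, while 1.64% of probe sets had an unadjusted p under 0.05 in limma. None of the 6 passed (adjusted p of 1).

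Some genes of interferon signalling were also higher in the TLR9KO line. Of 20 such genes measured, 10 were higher and 0 lower without beads, against 3.79% and 4.46% of all genes, with a median of 0.48 against 0.02. With beads 8 were higher and 0 lower, against 3.82% and 3.4%, with a median of 0.50 against -0.01. The others did not pass. Usp18, a feedback inhibitor of the type I receptor that is itself interferon-induced, differed most (3.15 ± 0.16, limma adjusted p = 4.77e-06). Stat2 (2.11 ± 0.12, adjusted p = 8.90e-06) and Irf9 (1.63 ± 0.12, adjusted p = 3.62e-05), which together form the complex that binds ISREs, were higher, as was Ifngr1, a chain of the interferon-gamma receptor (1.29 ± 0.19, adjusted p = 0.00301). The ligands did not pass, with Ifnb1 at -0.07 ± 0.18, Ifna4 at 0.08 ± 0.14 and Ifng at 0.01 ± 0.18. These 3 were singled out after their values were seen, and Ifna4 lay below the 25th percentile on all 10 arrays and Ifnb1 on 7. The count without beads was 6 without unstimulated TLR9KO array 2 and 5 after centring on the median. With beads it was 4 after centring on the median and with only the compared groups, and it also fell without TLR9KO bead array 2. Without wild-type bead array 3 there were 11 calls in each comparison. In that setting 3668 of all 19938 genes passed without beads and 4171 with beads.

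The machinery that GBPs and IRGs work with showed fewer or mixed differences. Of 6 genes of prenylation, the pathway that gives several GBPs their lipid anchor, none passed without or with beads. The largest difference was -0.51 ± 0.16 for Fnta without beads (limma adjusted p = 0.1). Without wild-type bead array 3, 2 passed in each comparison, where 3668 of all 19938 genes passed without beads and 4171 with beads. Of 16 genes of ATG8 conjugation and vacuole recognition, which steer IRGs and GBPs to vacuoles, 2 were higher and 1 lower without beads, against 3.79% and 4.46% of all genes, and 2 and 1 with beads, against 3.82% and 3.4%. The medians were 0.02 and 0.00, against 0.02 and -0.01 over all genes. Lgals8, a sensor of broken vacuoles (0.74 ± 0.16, adjusted p = 0.0217), and Trim21, a ubiquitin ligase (0.64 ± 0.11, adjusted p = 0.00694), were higher, and Atg7, an enzyme of the conjugation system, was lower (-0.44 ± 0.11, adjusted p = 0.0449). Leaving out single wild-type arrays gave 1 to 7 calls in this list without beads and 0 to 4 with beads. The highest of these counts came without wild-type bead array 3, where the counts over all genes given above were also raised. After centring on the median the count was 1 in each comparison. It also fell in both comparisons when either unstimulated TLR9KO array was left out, so the calls in this list were not stable.

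Of 12 inflammasome and defence genes with their own probe set, 4 were higher and 2 lower without beads, against 3.79% and 4.46% of all genes, with a median of 0.29 against 0.02. With beads 3 were higher and 1 lower, against 3.82% and 3.4%, with a median of 0.24 against -0.01. Cybb, the membrane subunit of the phagocyte NADPH oxidase (3.11 ± 0.33, limma adjusted p = 4.00e-04), Casp4, encoding caspase-11 (1.23 ± 0.22, adjusted p = 0.00845), and the cytokine gene Il18 (1.20 ± 0.20, adjusted p = 0.00574) were higher. Pycard, the inflammasome adaptor ASC, was lower (-1.42 ± 0.16, adjusted p = 4.94e-04). The remaining calls, named after their values were seen, were Gsdmd, which encodes a pore-forming protein (0.49 ± 0.11, adjusted p = 0.0284), and Aim2, a DNA sensor (-0.94 ± 0.21, adjusted p = 0.0209). The direction in this list was therefore not shared. The count of calls fell when single TLR9KO arrays were left out, and was 2 in each comparison after centring on the median. With beads it was 7 without wild-type bead array 3, where 4171 of all 19938 genes passed.

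**Figure D5:**
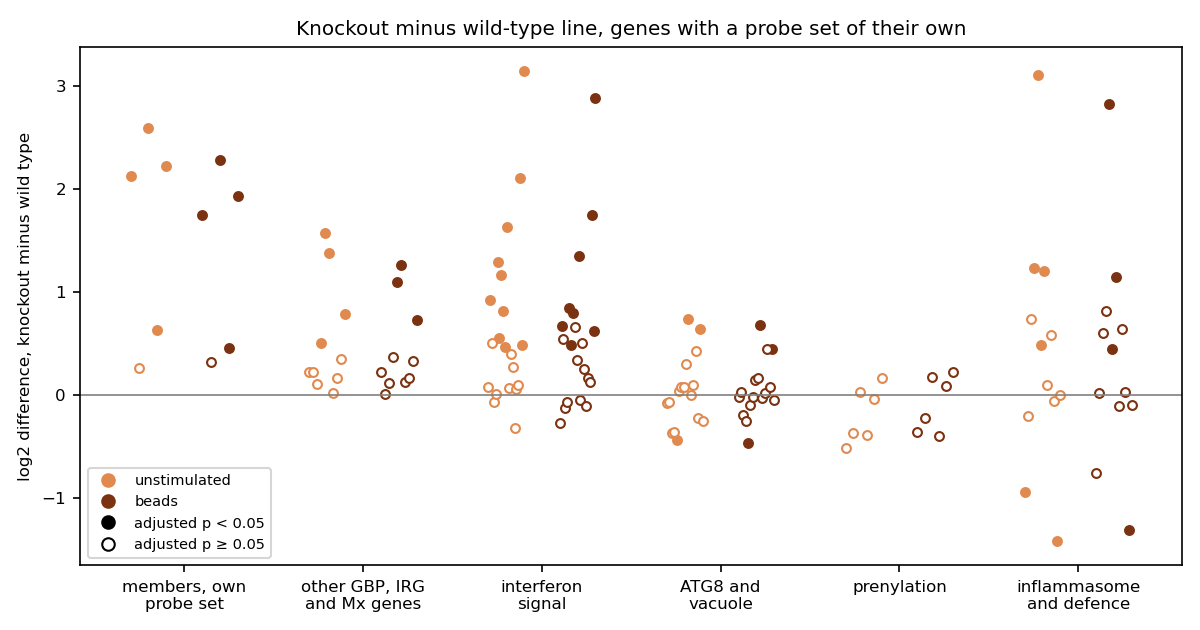
Difference between the lines in log2 signal (TLR9KO minus wild type, y axis) for every gene with its own probe set in each list (x axis), without beads (light) and with beads (dark), with filled points for adjusted p under 0.05. Of the members 4 of 5 are filled in each comparison, the filled points of the family and interferon signalling lists all lie above 0, the prenylation list has none, and the inflammasome and defence list has filled points on both sides of 0.

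Likeness was measured against the mean of the 5 members with their own probe set. By Pearson correlation with it over the 10 arrays, the most similar genes outside all lists above were Ids, Ddx58, Irf7, Slfn2 and Oasl2. Their r was 0.9968 to 0.9977, and their differences between the lines without beads were 1.77, 3.20, 5.12, 2.45 and 4.74. Ddx58 encodes the RNA sensor RIG-I, and Irf7 an interferon regulatory factor. The arrays fall into separate groups by line, so any gene that differs strongly between the lines scores high, and these values are a description.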

How the data were processed

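The table deposited by the authors holds log2 signal values per probe set for the 10 arrays. Per the submitters' processing notes these came from RMA, which removes background, matches the arrays' probe distributions and summarises probes. No version, software or probe annotation is named in the sources used here. Array medians were 5.75 to 6.10, so the arrays had no common median, and how they were centred is unknown. Per the labels' protocols, 100 ng of total RNA was amplified and 5.5 µg of cDNA was labelled.

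Of 28853 probe sets, 21789 carried 1 symbol in the platform annotation, 1621 several and 5443 none, and 21698 of the first were matched to current symbols by gene ID. Each gene was read from its brightest single-symbol probe set, which gave 19938 genes, and dim genes were kept. A model with a mean for each group was fitted in limma 3.58.1 (R 4.3.3), with 6 residual and 3.23 prior degrees of freedom from a plain eBayes. Tests were two-sided, adjusted by Benjamini-Hochberg over all genes, with a threshold of 0.05. Shared probe sets were tested in a fit over all probe sets (2.77 prior degrees of freedom). With 2 or 3 arrays a group, precision is limited. The code was tested on simulated data.

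Alternatives were eBayes with a trend or robust, median or 75th percentile centring, quantile normalisation, array weights, a fit on the compared groups alone, averaging a gene's probe sets, dropping genes below the 25th percentile, and leaving out each array. Besides the members, up to 4 genes per list were named, those with the largest differences past the threshold without beads (of all where none passed). Genes outside this rule are the ligands, Gsdmd, Aim2, the markers Cd14 and Mertk, the genes that share the Gbp6 and Gbp2 probe sets and the neighbouring genes. They were named after their values were seen. The members and lists were chosen with earlier results of these data known.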

Additional observations from a re-analysis of the deposited data

How the results depend on the processing

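The signs of all 10 readings in both line comparisons held under every alternative that gave a value. The member counts in these comparisons stayed within 1.5 times of 4, 5, 4 and 4, while the low-signal filter removed Gbp5 and Iigp1. Counts over all genes moved more. Without beads, 1645 genes passed, against 756 with median centring, 2483 after quantile normalisation, 4451 with array weights, 3262 with the compared groups alone and 681 to 3668 with single arrays left out (highest without wild-type bead array 3). With beads, 1439 passed, against 704, 2263, 6083, 480 and 597 to 4171 under the same settings. For the bead response, array weights gave 9174 genes in the wild-type line (0 before), with 1 member and 3 shared probe sets, and 16 in the TLR9KO line. They gave 9 for the difference of responses. Leaving out single arrays gave 0 to 17 in the TLR9KO line and 0 to 1 for the difference. The array weights ran from 0.0701 (wild-type bead array 3) to 12.1 (wild-type bead array 2), and their estimation stopped before it converged.

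Bead estimates near 0 changed sign. In the wild-type line, array weights gave -0.10 for Gbp3, 0.21 for Irgm1 and -0.04 for the shared Gbp6 probe set. Leaving out single arrays there gave -0.12 to 0.13 for Gbp7, -0.21 to 0.15 for Irgm1, -0.14 to 0.06 for the second Tgtp1 and Tgtp2 probe set and -0.16 to 0.02 for the brighter one. In the TLR9KO line it gave -0.26 to 0.09 for Iigp1 and -0.20 to 0.52 for Gbp2 with Gbp2b. For the difference of responses, array weights gave 0.13 and 0.06 for the second and the brighter Tgtp1 and Tgtp2 probe sets. Leaving out single arrays gave -0.19 to 0.01 and -0.24 to 0.04 for them, -0.34 to 0.00 for Iigp1 and -0.12 to 0.60 for Gbp2 with Gbp2b. The cause of these changes was not tested. No paired analysis was possible because no label numbers the replicates, and the numbers used here follow accession order and link no arrays across groups.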

Other observations

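The genes next to the GBP and IRG clusters were examined after the members' values were seen. They were the protein-coding genes with their own probe set within 3 genes of the clusters on chromosomes 3, 5 and 11, 20 in all. Without beads, 2 were higher in the TLR9KO line, Pdlim5 (1.70 ± 0.15, limma adjusted p = 1.35e-04) and Gtf2b (0.82 ± 0.15, adjusted p = 0.00947), which lie on either side of the GBP cluster on chromosome 3. Gemin5 (-0.70 ± 0.10, adjusted p = 0.00312) and 4930438A08Rik (-0.80 ± 0.12, adjusted p = 0.00327) were lower. The other 16 did not pass. Of all genes 3.79% were higher and 4.46% lower. With beads 3 were higher and 2 lower, against 3.82% and 3.4% of all genes, the addition being Lrrc8b (0.72 ± 0.17, adjusted p = 0.0301).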
